A study of Danio rerio with 3 samples.

Results

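NITRs (immune-type receptors of bony fishes) and DICPs (diverse immunoglobulin domain-containing proteins) are 2 related families of membrane receptors with immunoglobulin-type domains, encoded by clustered genes. NITRs have been likened to the natural killer (NK) receptors of mammals: many carry inhibitory tyrosine motifs in their tails, which recruit phosphatases, whereas zebrafish Nitr9 is an activating form that signals through the adaptor Dap12, the product of tyrobp. DICPs likewise include inhibitory and activating forms, and some have been found to bind lipids. The features were taken by name: each of the 31903 features of the count matrices whose symbol starts with nitr or dicp was a member. There were 35, of which 25 were NITR and 10 were DICP features. Of the 35, 10 share 4 symbols, namely nitr1b, nitr6b, dicp1.1 and dicp3.3, so these are given with their Ensembl identifiers. The genes are close relatives, and how the authors' counting divided molecules between near-identical copies is not given in the sources used here, so levels of single members within nitr1b, nitr6b, dicp1.1 and dicp3.3 are uncertain.

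The cells came from lck:GFP zebrafish, which make green fluorescent protein (GFP) under the promoter of lck, a kinase gene of T cells. The GFP level of a cell, not its lck transcript, thus set whether it was sorted. Sorted cells of the scale, the kidney marrow and the thymus gave 1 droplet library each. Per the series description, scale and marrow cells were taken as dim for GFP and thymus cells as bright, and per the labels' protocols the sort used lymphoid and precursor gates. Age, sex, strain and the number of fish are not given in the sources used here. With 1 library per group no test was possible and no p-value is given; tissue, library and, against the thymus, sort gate cannot be told apart. The marrow matrix was written by another version of the counting software than the scale and thymus matrices, so for any comparison with the marrow that difference cannot be told apart from tissue either. All intervals below are 95% intervals that cover counting error only.

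The scale library held 375 cells with 1279044 unique molecular identifiers (UMIs, each marking 1 captured molecule), the marrow library 983 cells with 4987653 UMIs, and the thymus library 4574 cells with 12405147 UMIs. The median depth was 3178 UMIs per scale cell, 4044 per marrow cell and 1370 per thymus cell. No cell barcode was shared between libraries. A UMI of FP236356.1 (trbc1), the constant gene of the T cell receptor beta chain, was found in 82.9% of scale cells, 91.3% of marrow cells and 96.9% of thymus cells, as a check of the label of lymphocytes. In the marrow that share shows little, since FP236356.1 stood at 1101 CPM in the called cells and 950 CPM in marrow barcodes with fewer than 100 UMIs. Cells of other kinds included 13 haemoglobin-rich and 11 neutrophil-marker cells in the marrow and 10 haemoglobin-rich cells in the thymus. Levels are given in CPM, the UMIs of a feature in a set of cells for every 1000000 UMIs of that set. They carry no scaling by gene length, since a UMI counts a molecule, and how completely each gene's molecules were captured is unknown.

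NITR transcripts were abundant in the scale, lower in the marrow and nearly absent from the thymus. The 25 NITR features together stood at 696 CPM in the scale (651 to 743; 890 UMIs in 127 cells), 140 CPM in the marrow (130 to 151; 699 UMIs in 187 cells) and 0.0806 CPM in the thymus (1 UMI). The scale level was 4.97-fold the marrow level (4.49 to 5.49). DICP transcripts were scarcer and differed less between scale and marrow. The 10 DICP features stood at 26.6 CPM in the scale (18.4 to 37.1; 34 UMIs in 23 cells), 16.6 CPM in the marrow (13.3 to 20.6; 83 UMIs in 58 cells) and 0.806 CPM in the thymus (0.387 to 1.48; 10 UMIs in 7 cells). The scale to marrow ratio of DICP was 1.6 (1.04 to 2.41), and it was 1.03 when each cell weighed the same. The transcripts were concentrated in few cells: 50% of member UMIs lay in 28 of 375 scale cells and in 45 of 983 marrow cells. In the scale cell with the highest share, members made up 1.07% of all UMIs, against 0.544% in the highest marrow cell and 0.110% in the highest thymus cell.

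A UMI of at least 1 member was found in 23 of 35 features in the scale, 29 in the marrow and 6 in the thymus, and 3 features, nitr11a, dicp2.2 and dicp1.1 (ENSDARG00000111013), had no UMI in any library. The 16 features with at least 20 UMIs over the 3 libraries, 14 NITR and 2 DICP, held 95.4% of all member UMIs. The other 19 had at most 18 UMIs each.

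Some members were read mostly in the scale, while others stood at similar levels in the scale and the marrow. nitr4a had 219 UMIs in 51 scale cells, or 171 CPM (149 to 196), 8 UMIs in 5 marrow cells, or 1.6 CPM (0.693 to 3.16), and none in the thymus. The ratio of scale to marrow was 107 (53.2 to 250). nitr4a alone made up 24.6% of the NITR UMIs of the scale and 1.14% of those of the marrow. nitr6a had 87 UMIs in the scale, or 68.0 CPM (54.5 to 83.9), and none in either the marrow or the thymus. The exact lower limit of its scale to marrow ratio was 90.0. The activating receptor gene nitr9 stood at 35.2 CPM in the scale (25.7 to 47.1; 45 UMIs in 22 cells), 0.401 CPM in the marrow (2 UMIs) and 0 UMIs in the thymus, with a scale to marrow ratio of 87.7 (22.9 to 747). Nearly all nitr4a, nitr6a and nitr9 molecules were thus read in scale cells.

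Both nitr6b features and one nitr1b feature were also higher in the scale. nitr6b (ENSDARG00000110751) stood at 129 CPM in the scale (110 to 150) and 8.02 CPM in the marrow (5.73 to 10.9), a ratio of 16.1 (11.3 to 23.3). nitr6b (ENSDARG00000109301) stood at 55.5 CPM in the scale (43.3 to 70.0) and 2.00 CPM in the marrow (0.961 to 3.69), a ratio of 27.7 (14.2 to 60.2). nitr1b (ENSDARG00000069773), which now carries the name nitr1o, stood at 64.9 CPM in the scale (51.7 to 80.4) and 6.22 CPM in the marrow (4.22 to 8.82), a ratio of 10.4 (6.83 to 16.3). Neither the nitr6b features nor this nitr1b feature had a UMI in the thymus. Less abundant members higher in the scale were nitr3a, with 25 UMIs in the scale, 7 in the marrow and a ratio of 13.9 (5.86 to 38.1), and nitr1i, with 14 and 11 UMIs and a ratio of 4.96 (2.09 to 12.1).

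nitr2b and nitr5 led the marrow. nitr2b stood at 43.0 CPM in the scale (32.4 to 56.0) and 48.1 CPM in the marrow (42.2 to 54.6), and nitr5 at 65.7 CPM in the scale (52.4 to 81.3) and 43.7 CPM in the marrow (38.1 to 49.9). The ratio of scale to marrow was 0.894 for nitr2b (0.654 to 1.2) and 1.5 for nitr5 (1.15 to 1.94), both within 2-fold. These genes made up 34.3% (nitr2b) and 31.2% (nitr5) of the NITR UMIs of the marrow, against 6.18% (nitr2b) and 9.44% (nitr5) in the scale. nitr10a was the member with the lowest ratio among those with at least 20 UMIs: 1 UMI in the scale, 36 UMIs in the marrow and 1 UMI in the thymus, for a ratio of scale to marrow of 0.108 (0.00267 to 0.643). nitr13 had 7 UMIs in the scale and 32 in the marrow (ratio 0.853, 0.318 to 1.97), nitr2a 3 and 19 (0.616, 0.117 to 2.09) and nitr3c 7 and 13 (2.10, 0.709 to 5.66), with intervals too wide to place them above or below 1.

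Among DICPs a single feature dominated. dicp1.3-4 stood at 23.5 CPM in the scale (15.8 to 33.5; 30 UMIs in 22 cells), 10.0 CPM in the marrow (7.44 to 13.2; 50 UMIs in 38 cells) and 0.0806 CPM in the thymus (1 UMI), with a scale to marrow ratio of 2.34 (1.44 to 3.75). It made up 88.2% of the DICP UMIs of the scale and 60.2% of those of the marrow. dicp1.1 (ENSDARG00000091993) had 4 UMIs in the scale, 17 in the marrow and 2 in the thymus, with a scale to marrow ratio of 0.918 (0.225 to 2.81). The thymus differed again: dicp1.17 had 5 of its 10 DICP UMIs and had none in the scale or the marrow.

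**Figure D1:**
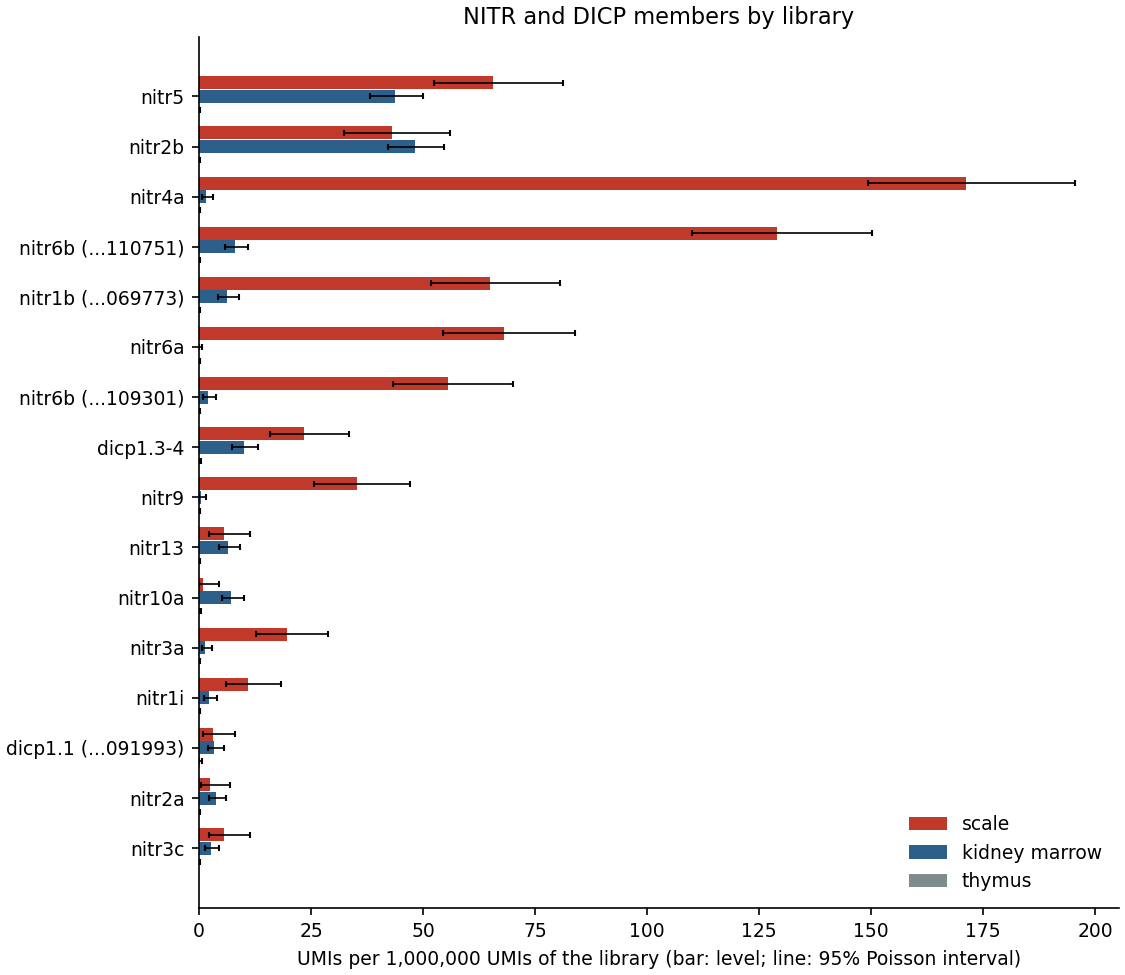
Level of the 16 members with at least 20 UMIs in scale, kidney marrow and thymus cells, in UMIs per 1000000 UMIs of the library, with 95% Poisson intervals as lines. nitr4a stands at 171 CPM in the scale and 1.6 CPM in the marrow, while nitr2b stands at 43.0 CPM in the scale and 48.1 CPM in the marrow, and thymus levels are too low to show as bars.

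A count of members past a 2-fold ratio, with 3 UMIs added to each side, was set beside the same count over all features with at least 20 UMIs in the 2 libraries. The added UMIs weigh more on the side with fewer UMIs in all, here and in the splits by marker. This pushes the ratios of scarce features, members or not, towards that side. For scale over marrow, 10 of 16 members were higher, 1 was lower and 5 were neither, where 13.4% of all 9794 features were higher and 7.08% lower. The median log2 ratio was 1.76 over the 16 members and 0.30 over all features. With at least 50 UMIs per feature 6 members were higher and none was lower, where 10.7% of all features were higher and 5.67% lower. With at least 1 UMI 22 members were higher, where 37.7% of all features were. Against the thymus, 10 of 10 members were higher in the scale, where 20.2% of all features were, and 7 of 7 were higher in the marrow, where 14.6% were. The minimum bears on every count of this kind, here and for the splits by marker: a member that passed it through the side where it is high alone had to differ. Among the members past 2-fold, nitr6a, nitr9, nitr4a, nitr6b (ENSDARG00000109301) and nitr3a passed it through the scale, nitr10a through the marrow, and all members set against the thymus through the scale or the marrow. The counts are therefore descriptions and support nothing about the members as a group.

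Marrow barcodes far below the depth of a cell also held members. The marrow matrix also lists 518348 barcodes with fewer than 100 UMIs, which were taken as a measure of free RNA. NITR features stood at 140 CPM in the called marrow cells and 72.0 CPM in these barcodes (63.9 to 81.0), a ratio of 1.95 (1.69 to 2.24). DICP features stood at 16.6 CPM in the called marrow cells and 9.48 CPM in these barcodes (6.68 to 13.1), a ratio of 1.75 (1.18 to 2.66). nitr2b and nitr5 led the small barcodes too, with 39.3% (nitr2b) and 16.0% (nitr5) of their member UMIs. No such barcodes were analysed for the scale or the thymus, whose matrices start at about 500 UMIs. Before thinning, a member UMI was found in 23.0% of marrow cells (20.4 to 25.8%), and in 3 of 11 neutrophil-marker marrow cells, or 27.3% (6.02 to 61.0%), which had a median of 8378 UMIs. The unthinned marrow share is therefore not read as expression, although the level in those 11 cells, 16.8 CPM (3.47 to 49.2), was under the 157 CPM of all marrow cells (146 to 168). After thinning to 1000 UMIs per cell a member UMI was found in 11.4% of marrow cells (9.48 to 13.5%). It was found in 0 of the 11 neutrophil-marker cells, with an exact upper limit of 28.5%, and in 0 of 13 haemoglobin-rich cells, with one of 24.7%. The scale had no cells of either kind to serve as background.

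Within the scale, the cells with the highest NITR levels were those with FP236331.1, a feature with no role annotated in the files. Cells were split by whether they held at least 1 UMI of a marker, and a split is given where each side had at least 30 cells. FP236331.1 was found in 105 of 375 scale cells, in 7 of 983 marrow cells and in no thymus cell. NITR features stood at 1926 CPM in the 105 positive scale cells (1783 to 2077) and 233 CPM in the 270 negative ones (203 to 267), a ratio of 8.25 (7.07 to 9.66). Depth was similar on both sides, with medians of 3143 UMIs in positive and 3256 UMIs in negative cells. DICP features showed the opposite order, at 8.59 CPM in positive cells (3 UMIs, all in 1 cell) and 33.3 CPM in negative ones (31 UMIs in 22 cells), a ratio of 0.258 (0.0504 to 0.826), which was 0 without the highest cell of each side.

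The members did not share this difference evenly. nitr4a stood at 575 CPM in FP236331.1-positive and 19.4 CPM in negative scale cells, a ratio of 29.7 (18.3 to 51.2). nitr9 had 44 UMIs in positive cells and 1 UMI in negative cells, a ratio of 117 (19.9 to 4728). The ratio was 24.3 for nitr6b (ENSDARG00000109301), 15.1 for nitr6a and 14.9 for nitr6b (ENSDARG00000110751). nitr1b (ENSDARG00000069773), at 8.38, and nitr5, at 6.28 (3.87 to 10.5), followed. The marrow-leading gene nitr2b showed a ratio of 1.64 with an interval that includes 1 (0.906 to 2.91). 2 members had the opposite order. nitr3a had no UMI in positive cells and 25 in negative cells, with an exact upper limit of the ratio of 0.423. dicp1.3-4 had 2 UMIs in positive and 28 in negative cells, a ratio of 0.190 (0.0219 to 0.754). Of 10 members with at least 20 UMIs in the scale, 7 were past 2-fold higher and 2 past 2-fold lower in positive cells, where 10% of all features were higher and 4.88% lower. With at least 50 UMIs per feature, or past 4-fold, no member was lower, and the share of all features was not computed for these alternatives. nitr9, nitr4a, nitr6a and nitr6b (ENSDARG00000109301) reached 20 UMIs through the positive cells alone, and nitr3a and dicp1.3-4 through the negative cells alone.

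A split by the chemokine gene ccl20a.3 gave values of similar size. NITR features stood at 2057 CPM in 93 ccl20a.3-positive scale cells and 270 CPM in 282 negative ones, a ratio of 7.62 (6.59 to 8.84), and all 45 nitr9 UMIs and none of the 34 DICP UMIs of the scale lay in ccl20a.3-positive cells. Without the FP236331.1-positive cells, a choice made after the values were seen, the scale still stood at 233 CPM for NITR and at 1.72-fold the marrow (1.47 to 2.00). The 7 FP236331.1-positive marrow cells had 25 member UMIs, or 855 CPM (553 to 1262), in 5 cells.

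il2rb encodes the receptor chain for interleukins 2 and 15 that NK cells and many T cells use. In the marrow, NITR features stood at 338 CPM in the 367 il2rb-positive cells (311 to 366) and 33.3 CPM in the 616 negative cells (27.4 to 40.3), a ratio of 10.1 (8.25 to 12.6). DICP features stood at 32.6 CPM in positive cells (24.7 to 42.2) and 8.03 CPM in negative cells (5.24 to 11.8), a ratio of 4.06 (2.51 to 6.73). The NITR ratio was 3.47 (2.52 to 4.76) when both status and levels were taken from cells thinned to 1000 UMIs, and the DICP ratio was then 3.05 with an interval that includes 1 (0.964 to 9.19). The il2rb-negative marrow cells lay below the small barcodes for NITR and DICP together, at 41.4 CPM (34.7 to 49.0) against 81.5 CPM (72.8 to 91.0). The status calls can read free RNA too: the small barcodes held il2rb at 116 CPM, nkl.1 at 249 CPM and FP236356.1 (trbc1) at 950 CPM. The part of free RNA in the marrow splits by these 3 genes was not tested.

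Of the members with at least 20 UMIs in the marrow, 7 of 7 were past 2-fold higher in il2rb-positive marrow cells, where 5.5% of all features were. Of these 7, only nitr2b and nitr5 had 20 UMIs or more in the negative cells, so the count is a description. With at least 50 UMIs per feature this count was 3, and with at least 1 UMI it was 22. The share of all features was not computed at these minimums, so neither count is read further. nitr2b stood at 123 CPM in positive and 7.72 CPM in negative cells (ratio 15.9, 10.5 to 25.2), and nitr5 at 96.7 CPM in positive and 15.1 CPM in negative cells (6.39, 4.63 to 8.97). The ratio was 17.9 for nitr13, 14.8 for nitr10a, 13 for nitr6b (ENSDARG00000110751), 9.64 for nitr1b (ENSDARG00000069773) and 5.28 for dicp1.3-4.

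In the scale the same split gave no such difference for the NITR level, although it did for the share of cells. The level was 703 CPM in the 163 il2rb-positive cells (640 to 771) and 688 CPM in the 212 negative cells (625 to 756), a ratio of 1.02 (0.895 to 1.17). Before thinning, a NITR UMI was found in 46.0% of positive and 24.5% of negative cells, at median depths of 3845 and 2920 UMIs. The NITR sum covers classes of cell with unlike values. Among FP236331.1-negative scale cells, NITR features stood at 351 CPM in il2rb-positive and 93.9 CPM in il2rb-negative cells, a ratio of 3.74 (2.64 to 5.42), whereas among FP236331.1-positive cells they stood at 1930 CPM with il2rb and 1924 CPM without it, a ratio of 1.00 (0.858 to 1.17). These splits within FP236331.1 classes were chosen after the values were seen. DICP features were read with il2rb in every case in the scale: all 34 UMIs lay in il2rb-positive cells, at 52.5 CPM (36.3 to 73.3). The il2rb-negative cells had none, and the exact lower limit of the ratio was 8.49. Of the members, nitr3a had 23 UMIs in il2rb-positive and 2 in il2rb-negative scale cells (ratio 11.2, 2.77 to 97.9), while nitr6b (ENSDARG00000109301) had 16 and 55 (0.283, 0.151 to 0.501). In all, 2 of 10 members were past 2-fold higher, where 9.26% of all features were, and 1 was lower, where 3.6% were.

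nkl.1 encodes an NK-lysin, a pore-forming antimicrobial peptide of cytotoxic granules. In the scale, NITR and DICP levels went opposite ways by nkl.1. NITR features stood at 170 CPM in the 40 nkl.1-positive scale cells (113 to 246) and 773 CPM in the 335 negative cells (723 to 827), a ratio of 0.220 (0.145 to 0.320). Without the highest cell of each side the ratio was 0.0993, and with 2 UMIs required of nkl.1 it was 0.0781. DICP features stood at 134 CPM in positive cells (83.8 to 202; 22 UMIs) and 10.8 CPM in negative cells (5.56 to 18.8; 12 UMIs), a ratio of 12.4 (5.88 to 27.5). The share of cells differed less than the level for NITR. Before thinning, a NITR UMI was found in 25% of positive and 34.9% of negative scale cells, and a DICP UMI in 35% and 2.69%. Among FP236331.1-negative scale cells alone the ratios were 0.264 for NITR (0.125 to 0.495) and 8.65 for DICP (3.99 to 19.5), in the same directions. 4 members, nitr2b, nitr1b (ENSDARG00000069773), nitr6a and nitr6b (ENSDARG00000109301), had no UMI in nkl.1-positive scale cells and between 55 and 87 UMIs in negative ones. Of 10 members, 2 were past 2-fold higher in nkl.1-positive cells and 6 lower, where 32% of all features were higher and 3.74% lower. The nkl.1-positive cells had fewer UMIs in all, so the 3 added UMIs by themselves raise both counts of higher features. nitr3a, 1 of the 2 members, had a ratio of 1.69 (0.496 to 4.65) with none added. The count of higher members was 1 with 1 UMI added in place of 3, and 0 with at least 50 UMIs per feature. The share of all features was not computed for these alternatives.

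In the marrow both families were higher in nkl.1-positive cells. NITR features stood at 286 CPM in the 163 positive cells (248 to 327) and 115 CPM in the 820 negative cells (105 to 126), a ratio of 2.48 (2.10 to 2.92). DICP features stood at 76.6 CPM in positive cells (57.8 to 99.5; 56 UMIs) and 6.34 CPM in negative cells (4.18 to 9.23; 27 UMIs), a ratio of 12.1 (7.5 to 19.9). In cells thinned to 1000 UMIs the DICP ratio was 1.64 with a wide interval (0.300 to 5.98), so at that depth no difference was detectable. dicp1.3-4 accounted for most of it, with 38 UMIs in positive and 12 in negative marrow cells, a ratio of 18.4 (9.43 to 38.7), close in size to its 13.5 in the scale (6.05 to 32.4). The difference between these 2 ratios was not tested. nitr5, at 2.87 (2.13 to 3.83), and nitr2b, at 2.40 (1.79 to 3.18), were also higher. Of 7 marrow members, 5 were past 2-fold higher and none was lower, where 15.1% of all features were higher and 5.32% lower.

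The NITR sum differed little between scale cells with and without trbc1. Median depth was 3329 UMIs in the positive and 1851.5 UMIs in the negative scale cells, and what part depth has in this split was not tested. NITR features stood at 693 CPM in the 311 trbc1-positive scale cells (645 to 744) and 713 CPM in the 64 negative cells (591 to 852), a ratio of 0.973 (0.802 to 1.19). DICP features had 33 UMIs in positive cells and 1 in negative cells (ratio 5.0, 0.838 to 204). 1 of 10 members, nitr5, was past 2-fold higher in trbc1-positive scale cells, where 0.703% of all features were higher, with 81 UMIs in positive and 3 in negative cells (4.09, 1.35 to 20.3). nitr6b (ENSDARG00000110751) had the opposite order, within 2-fold, at a ratio of 0.630 (0.426 to 0.958). In the marrow NITR features stood at 156 CPM in the 897 positive cells (144 to 169) and 56.2 CPM in the 86 negative cells (41.0 to 75.2), a ratio of 2.78 (2.05 to 3.85). That ratio depended on how cells were weighed: it was 1.17 with each cell weighing the same and 0.753 (0.546 to 1.04), the other way round, in cells thinned to 1000 UMIs. Shares of cells did not differ by it either, since 11.5% of positive cells (9.47 to 13.8%) and 10.5% of negative cells (4.90 to 18.9%) held a member after thinning. Median depth was 4037 UMIs in the trbc1-positive and 5039 UMIs in the trbc1-negative marrow cells. DICP features were at 14.3 CPM in positive and 28.7 CPM in negative marrow cells, a ratio of 0.499 (0.304 to 0.845), which was 0.889 (0.293 to 2.98) after thinning. 5 of 7 members were past 2-fold higher and 1 lower, where 7.11% of all features were higher and 24.6% lower.

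**Figure D2:**
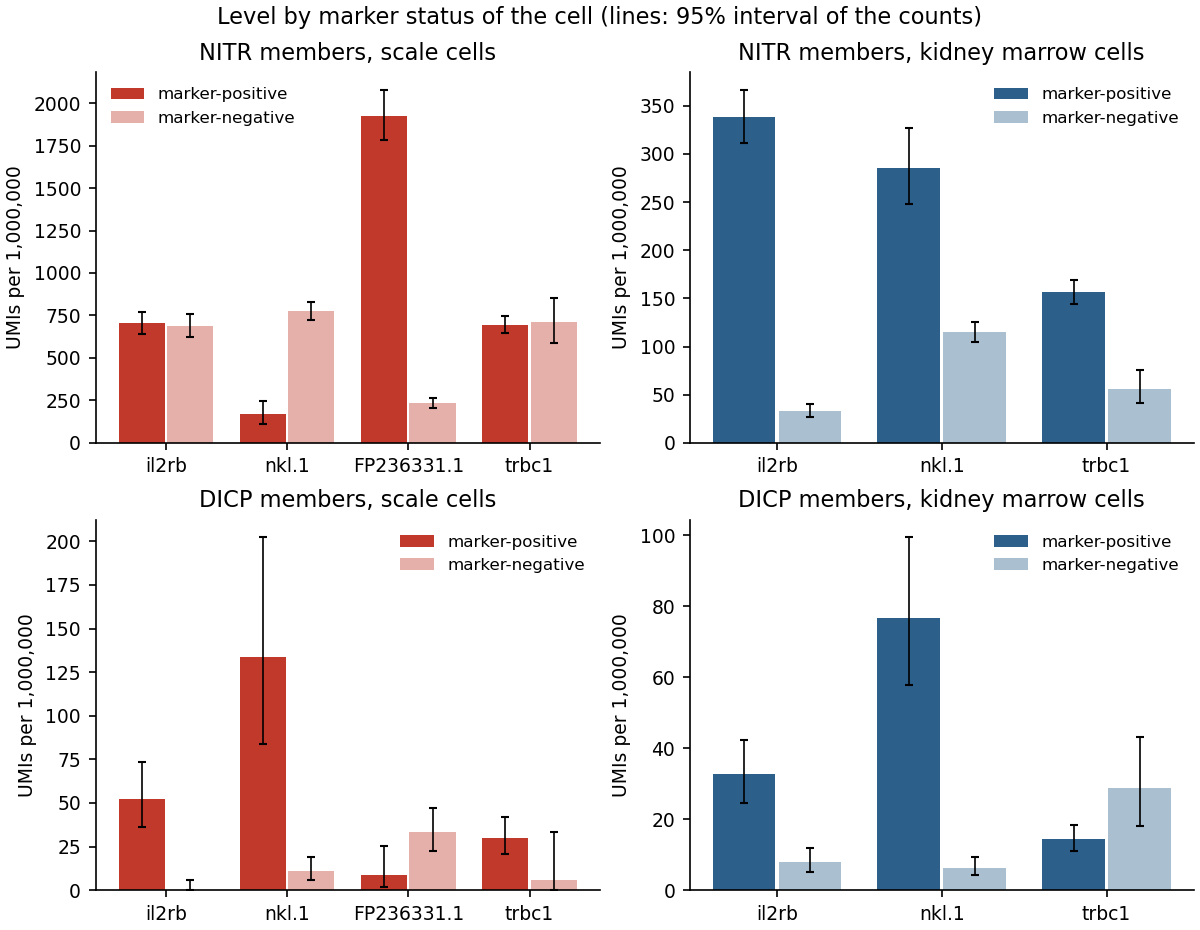
NITR (top) and DICP (bottom) levels in marker-positive and marker-negative cells of the scale (left) and kidney marrow (right), in UMIs per 1000000 UMIs of the cells, with 95% intervals of the counts; each panel has its own axis. NITR stands at 1926 CPM in FP236331.1-positive and 233 CPM in negative scale cells, and at 338 CPM in il2rb-positive and 33.3 CPM in negative marrow cells, while DICP is highest with nkl.1, at 134 CPM in the scale and 76.6 CPM in the marrow.

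Some single scale cells held several members. Distinct members with a UMI were counted after each cell had been thinned to 1000 UMIs, which left out 36 scale cells and 1344 thymus cells with fewer UMIs and no marrow cell. Features that share a symbol count as separate members here and below. Both nitr6b features were read in 23 unthinned scale cells, and both stand at 1 place in the gene order given below. No count with such features joined was made, so the numbers of members may be too high. At least 1 member was found in 26.3% of 339 scale cells (21.7 to 31.3%), 11.4% of 983 marrow cells (9.48 to 13.5%) and 0.0619% of 3230 thymus cells. At least 2 members were found in 13.6% of scale cells (10.1 to 17.7%), 1.93% of marrow cells (1.17 to 3.0%) and in 0 thymus cells. Of the cells that held any member, 51.7% held 2 or more in the scale (40.8 to 62.4%) and 17% in the marrow (10.5 to 25.2%). The largest number in a cell was 5 in the scale and 4 in the marrow after thinning, and 7 and 5 before it. The shares depend on depth: with cells thinned to 2000 UMIs, 2 or more members were found in 18.8% of scale and 4.45% of marrow cells, and unthinned in 23.7% (19.5 to 28.4%) and 8.44% (6.78 to 10.4%), at median depths of 3178 and 4044 UMIs.

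FP236331.1-positive scale cells stood out in this count. At least 2 members were found in 37.4% of 99 positive cells (27.8 to 47.7%) and 3.75% of 240 negative cells (1.73 to 7.0%), and at least 3 in 22 positive cells and 1 negative cell. In the marrow, at least 1 member was found in 23.7% of 367 il2rb-positive cells (19.5 to 28.4%) and 4.06% of 616 negative cells (2.64 to 5.93%), and at least 2 in 4.09% of positive (2.30 to 6.65%) and 0.649% of negative cells (0.177 to 1.65%). In the scale by il2rb, at least 1 member was found in 31.8% of positive (24.6 to 39.8%) and 21.6% of negative cells (15.9 to 28.3%). The shares with at least 2 members there were 13.6% in positive (8.64 to 20.1%) and 13.5% in negative cells (8.94 to 19.3%). Doublets were called in 16 of 391 scale barcodes and left out. The caller marked none in the marrow or the thymus, so doublets were not controlled there, and their part in the counts of members per cell was not tested.

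**Figure D3:**
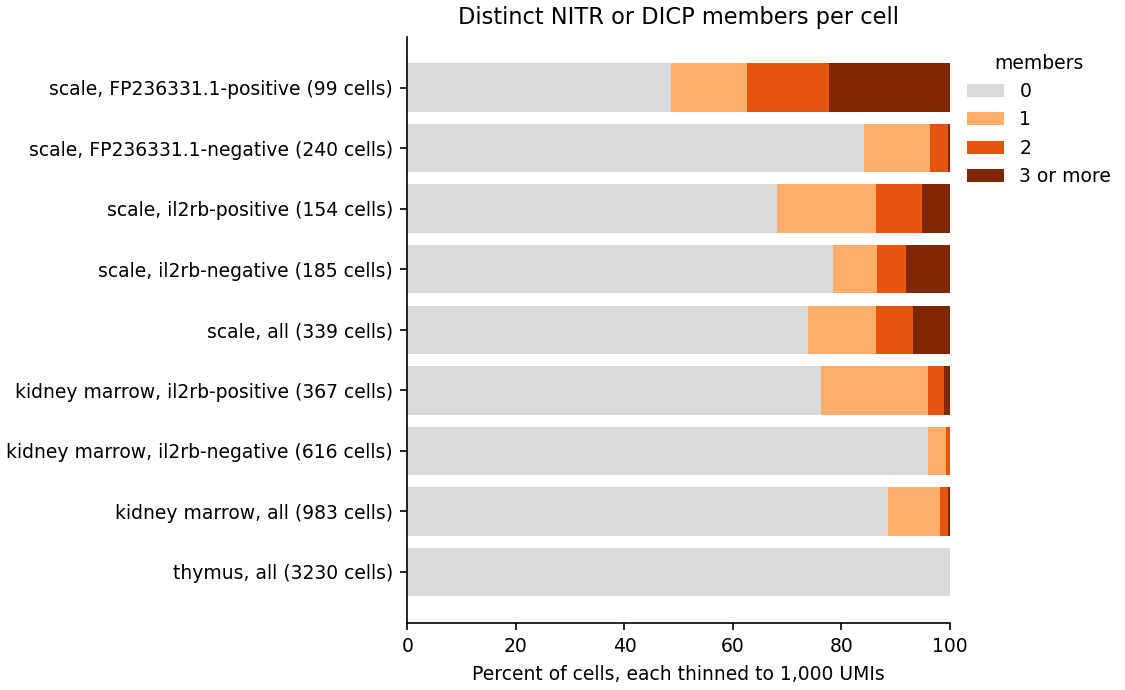
Percent of cells that hold 0, 1, 2 or at least 3 distinct NITR or DICP members after each cell was thinned to 1000 UMIs, for cells split by FP236331.1 or il2rb and for each whole library. At least 2 members were found in 37.4% of FP236331.1-positive and 3.75% of FP236331.1-negative scale cells, 1.93% of marrow cells and 0 of 3230 thymus cells.

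Neither did a single member usually take over a scale cell. Among the 67 scale cells with at least 5 member UMIs, 64 held more than 1 member, and the most abundant member took a median of 50% of the cell's member UMIs, with a range from 26.7 to 100%. Among 56 such marrow cells 41 held more than 1, and the median was 66.7%, from 33.3 to 100%. After thinning, 23 scale cells and 3 marrow cells had at least 5 member UMIs, and each of these held more than 1 member. With at least 2 member UMIs after thinning, 13 of 59 scale cells and 28 of 47 marrow cells held a single member. The most abundant member then took a median of 60% in the scale and 100% in the marrow.

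The leading gene of the scale was almost always read with others. After thinning, 29 of 31 scale cells with nitr4a, or 93.5% (78.6 to 99.2%), held another member, against 18.8% of the 308 cells without nitr4a (14.6 to 23.7%). For nitr2b, which leads the marrow, 25% of 36 marrow cells with it (12.1 to 42.2%) held another member, against 8.03% of 947 cells without it (6.37 to 9.94%).

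Which members were read together was not even. These shares are unthinned, so depth differs between cells, and the share in cells without the first member is given beside each. Of 33 scale cells with nitr5, 28 also held nitr4a, or 84.8% (68.1 to 94.9%), against 6.73% of 342 cells without nitr5. Of 51 cells with nitr4a, 36 held nitr6b (ENSDARG00000110751), or 70.6% (56.2 to 82.5%), against 5.56% of the others, and of 31 cells with nitr6a, 24 did, or 77.4% (58.9 to 90.4%), against 8.72%. nitr6b (ENSDARG00000110751) was read in 23 of the 28 cells with nitr6b (ENSDARG00000109301), or 82.1% (63.1 to 93.9%), against 8.93% of the others, and whether counting divided molecules between these copies was not tested. nitr9 was read with nitr4a in 16 of its 22 cells, or 72.7% (49.8 to 89.3%), against 9.92% of the others. Few of the 22 scale cells with dicp1.3-4 held a NITR gene of this set. None held nitr4a, nitr6b (ENSDARG00000110751), nitr6a or nitr9, with an exact upper limit of 15.4%, where between 6.23 and 15.3% of the cells without dicp1.3-4 held each of them. The limit lies above those shares, so no difference was detectable at this number of cells. nitr5, nitr2b, nitr1b (ENSDARG00000069773) and nitr6b (ENSDARG00000109301) were each read in 1 of the 22, or 4.55%, against between 6.80 and 9.07% of the cells without dicp1.3-4.

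**Figure D4:**
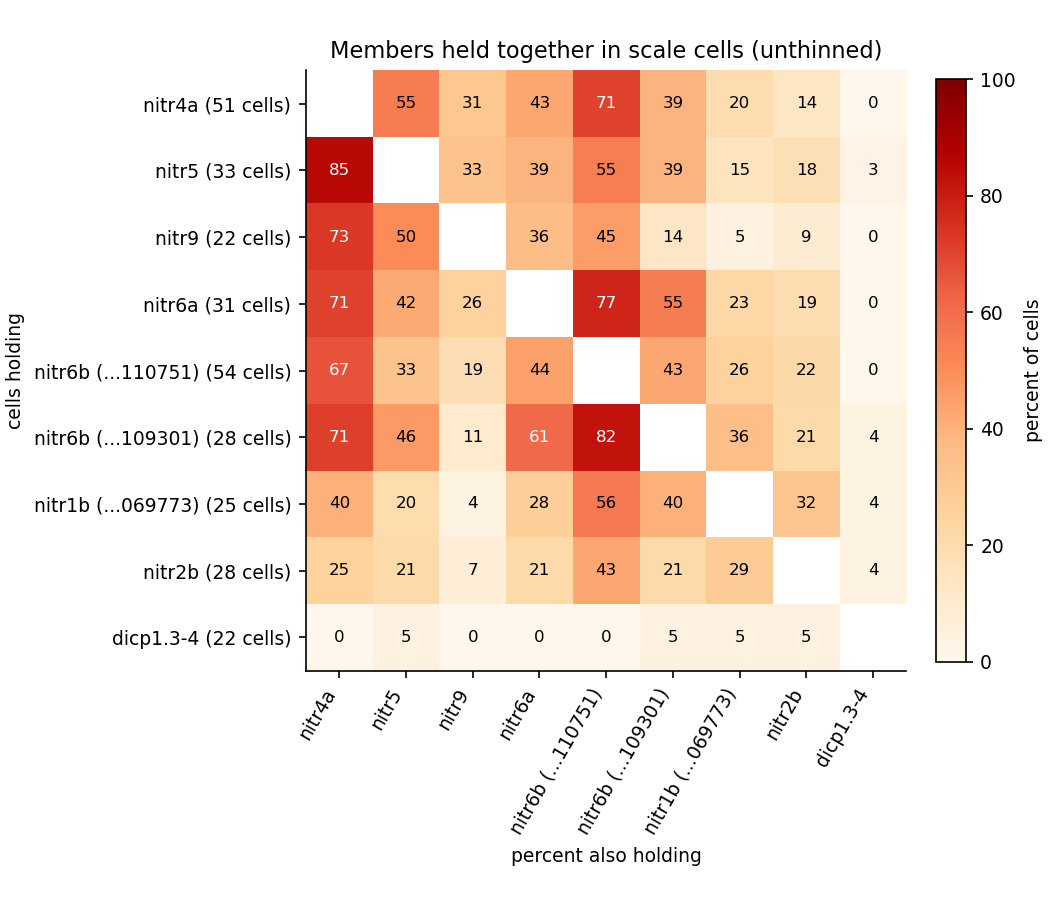
Percent of the unthinned scale cells holding the member of each row that also hold the member of each column, for members read in at least 20 scale cells. The highest share is that of nitr5 cells holding nitr4a (84.8% of 33), nitr9 cells hold nitr4a at 72.7%, and the 22 dicp1.3-4 cells hold none of nitr4a, nitr6b (ENSDARG00000110751), nitr6a or nitr9.

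nitr2b and nitr5, the leading members of the marrow, were read together in some cells of both libraries. The share of cells with nitr2b was higher with nitr5 than without it in both, but the intervals overlap. Such overlap does not show that there is no difference, and the difference was not tested. Of 33 scale cells with nitr5, 6 also held nitr2b, or 18.2% (6.98 to 35.5%), against 6.43% of the cells without nitr5 (4.07 to 9.58%), with intervals that overlap. Of 69 marrow cells with nitr5, 10 also held nitr2b, or 14.5% (7.17 to 25%), against 7.0% of 914 cells without nitr5 (5.43 to 8.85%), with intervals that overlap too. The difference between the libraries was not tested. nitr10a was read in 21 marrow cells, of which 8 held nitr5, or 38.1% (18.1 to 61.6%), against 6.34% of the 962 others (4.88 to 8.07%). dicp1.3-4 was read in 38 marrow cells, of which 3 held nitr5 (7.89%, against 6.98% of the others) and 1 held nitr2b (2.63%, against 7.72%).

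By the order of protein-coding genes in a RefSeq table of the GRCz12tu assembly, another build than that of the counts, nitr5, nitr4a, nitr6a and nitr6b follow each other directly at the end of a run of 7 NITR genes. nitr9 and nitr10a lie in another run, of 5, and nitr2b and nitr3a in a run of 12. Several pairs often read together in the scale are thus neighbours, but nitr9 and nitr4a, also often read together, lie in different runs. The order was looked at after the values were seen, and no test was made.

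The genes through which such receptors signal were set beside the members, in cells with a member UMI against cells without. Of a list of 23 adaptors, kinases and phosphatases 22 were matched. In the scale 17 of them had at least 20 UMIs, of which 4 were at least 2-fold higher and 1 at least 2-fold lower in cells with a member, where 8.02% of all features were higher and 4.26% lower by the same rule. In the marrow 18 had at least 20 UMIs, of which 5 were at least 2-fold higher and 2 at least 2-fold lower, where 12.2% of all features were higher and 5.06% lower. The median ratio over the list was 1.17 in the scale and 1.54 in the marrow. Cells with a member were deeper, with medians of 3594 UMIs against 3020 UMIs in the scale and 4542 UMIs against 3975 UMIs in the marrow, and what part depth has in these ratios was not tested. In the marrow the class with a member is the unthinned one, 226 of 983 cells, whose share was not above that in neutrophil-marker cells, and this limit holds for every marrow value below that uses it.

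Over the 3 libraries together, the 4 genes of the list with the most UMIs were lck, ptpn6, zap70 and plcg1. zap70, the kinase that serves the T cell receptor, was lower in cells with a member: 33.9 CPM in scale cells with a member and 117 CPM in those without (ratio 0.289, 0.166 to 0.480), and 39.1 CPM and 194 CPM in the marrow (0.202, 0.148 to 0.269). lck, the kinase upstream of it, showed 0.799 in the scale (0.538 to 1.18) and 0.688 in the marrow (0.539 to 0.870). ptpn6, a phosphatase recruited by inhibitory tails, showed 1.17 in the scale (0.962 to 1.41) and 1.57 in the marrow (1.42 to 1.75), and plcg1, a phospholipase of T cell signalling, 0.852 (0.624 to 1.16) and 0.928 (0.742 to 1.15).

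The genes in this and the next paragraph come from the same list but were chosen after their values were seen. syk, the kinase related to zap70 that serves many innate receptors, stood at 855 CPM in scale cells with a member and 297 CPM in those without (ratio 2.88, 2.45 to 3.40), and at 500 CPM and 94.1 CPM in the marrow (5.31, 4.66 to 6.07). fcer1g, which encodes an adaptor with an activating motif, showed ratios of 2.61 in the scale (2.17 to 3.15) and 7.85 in the marrow (6.58 to 9.40), and its relative fcer1gl 2.61 (1.57 to 4.45) and 2.97 (2.20 to 4.0). lcp2b, a relative of the mammalian adaptor SLP-76, showed 1.81 in the scale (1.21 to 2.74) and 3.58 in the marrow (2.39 to 5.38). tyrobp, the adaptor gene of Nitr9, was hardly read: it had 9 UMIs in the scale, 5 in the marrow and 20 in the thymus, and of the 9 scale UMIs 1 lay in FP236331.1-positive cells, which held 44 of the 45 nitr9 UMIs. In those same 105 cells fcer1g stood at 469 CPM (400 to 547) and the adaptor gene hcst at 77.3 CPM (50.9 to 112).

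The signalling genes did not all differ alike by FP236331.1. In FP236331.1-positive against FP236331.1-negative scale cells lcp2b showed a ratio of 4.43 (2.94 to 6.78), plcg2 2.13 (1.53 to 2.96) and cd247l, which encodes a chain of the T cell receptor complex, 2.02 (1.15 to 3.50). syk showed 0.832 (0.694 to 0.992), fcer1g 1.2 (0.988 to 1.44) and zap70 0.454 (0.244 to 0.789). sh2d1ab, an adaptor gene of lymphocyte receptors, had 5 UMIs in positive and 137 in negative cells, a ratio of 0.0971 (0.0310 to 0.232). In il2rb-positive against il2rb-negative marrow cells fcer1g showed 11.4 (9.07 to 14.3), lcp2b 10.3 (6.01 to 18.8) and syk 6.47 (5.56 to 7.55), while zap70 showed 0.360 (0.295 to 0.436) and sh2d1ab 2.11 (1.89 to 2.35).

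**Figure D5:**
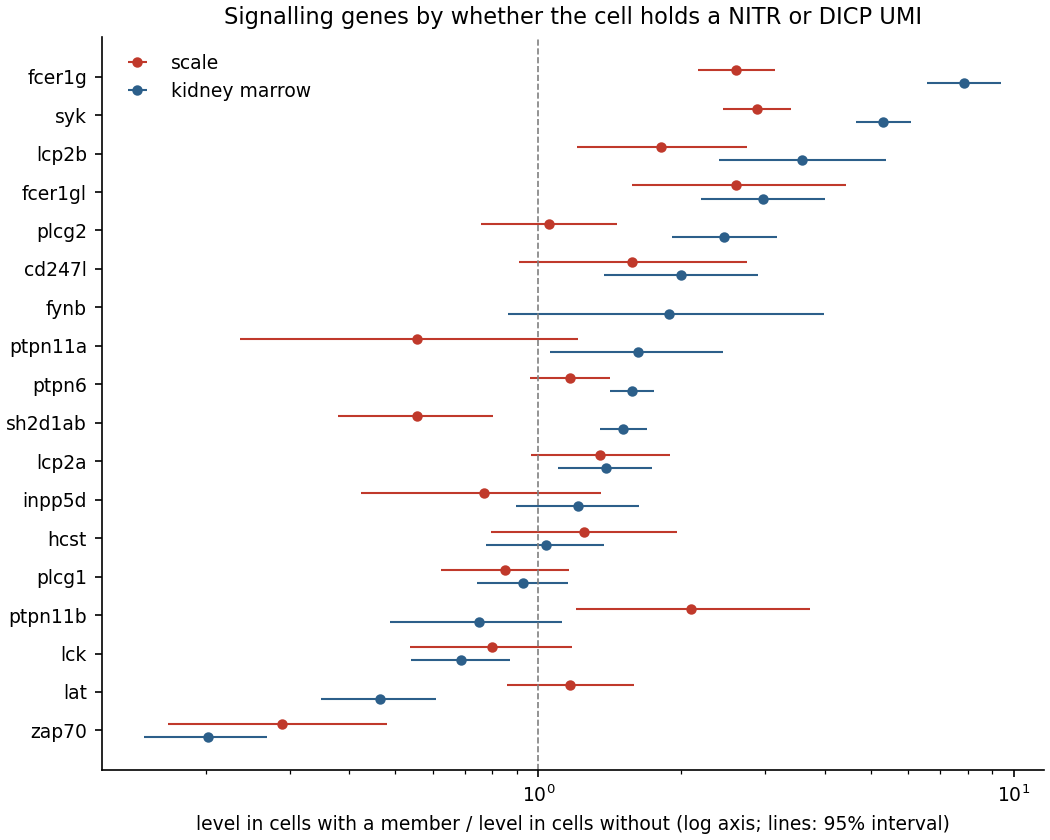
Ratio of the level in cells with a NITR or DICP UMI to the level in cells without, on a log axis, for signalling genes with at least 20 UMIs in the library, with 95% intervals of the counts, in scale (red) and kidney marrow (blue) cells. fcer1g (2.61 in the scale, 7.85 in the marrow) and syk (2.88 and 5.31) lie above 1 in both libraries and zap70 (0.289 and 0.202) below it.

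Markers of cell types were compared between the same groups. The list of NK and cytotoxic genes, 16 features, stood at 5660 CPM in scale cells with a member and 3543 CPM in those without, and at 5823 CPM and 1656 CPM in the marrow. The median cell stood at 1569 CPM and 938 CPM in the scale, and at 4300 CPM and 498 CPM in the marrow. Of 10 symbols with at least 20 UMIs in the scale, 2 were at least 2-fold higher with a member and 8 lay between, where 8.02% of all features were higher. In the marrow 11 of 15 were higher and 4 lay between, where 12.2% of all features were higher. Of the list's 17 symbols, nkl.1 and nkl.2 being the same feature, 14 in the scale and 17 in the marrow were found in cells with a member. In cells without a member 15 were found in the scale and 16 in the marrow. il2rb and nkl.1 are themselves on that list. The list of 12 T cell genes stood at 1204 CPM with a member and 1602 CPM without in the scale, and at 1039 CPM and 1926 CPM in the marrow. Of 10 with at least 20 UMIs in the scale, 0 were at least 2-fold higher with a member and 6 at least 2-fold lower, with a median ratio of 0.287. In the marrow 0 of 11 were higher and 7 lower, with a median ratio of 0.202. Of all features 4.26% were lower in the scale and 5.06% in the marrow. Within the T cell list the helper coreceptor gene cd4-1 had 3 UMIs in scale cells with a member and 53 in those without (ratio 0.0724, 0.0145 to 0.223), while trbc1 itself showed 0.860 (0.762 to 0.969). FP236331.1-positive scale cells were lower in the first list: the NK and cytotoxic list stood at 1895 CPM in them and 5441 CPM in FP236331.1-negative cells. Of its 10 symbols with at least 20 UMIs in the scale, 0 were at least 2-fold higher and 8 at least 2-fold lower in positive cells, with a median ratio of 0.258. In the positive cells gzma, gzmk, tbx21, eomesa, ifng1, nkl.3 and nkl.4 were at 0, and all of these were read in negative cells. For a gene with fewer than 20 UMIs in the scale such a 0 shows little. prf1.2 had no UMI in any scale cell. The T cell list summed to 1425 CPM in positive and 1428 CPM in negative cells, but its genes differed: of 10 with at least 20 UMIs, 2 were at least 2-fold higher and 6 at least 2-fold lower in positive cells, with a median ratio of 0.329, and cd28, cd8a, cd8b and foxp3a were at 0 there and read in negative cells. The list of type 2 and type 17 genes stood at 278 CPM in positive and 75.3 CPM in negative cells. Of its 6 genes, 3 were read in positive and 2 in negative cells, and 2 had at least 20 UMIs. The genes il13, il17a/f3 and il22 were at 0 on both sides, and il4 was also at 0 in negative cells.

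Markers of other cell types also differed between cells with and without a member, in both directions, and their part in the results was not tested. In the scale, the 6 keratinocyte genes stood at 26.7 CPM in cells with a member and 4686 CPM in those without, with the median cell at 0 on both sides. The neutrophil list had 1 UMI in all. The 8 macrophage and dendritic genes stood at 695 CPM with a member and 582 CPM without, with the median cell at 533 CPM and 0 CPM. Of these genes 3 were found in cells with a member and 1 in those without, while mpeg1.1, csf1ra, c1qa, c1qb and mfap4 had no UMI in any scale cell. In the marrow, erythroid genes stood at 254 CPM with a member and 15487 CPM without, although the median cell stood at 188.5 CPM with and 214.5 CPM without. B cell genes stood at 31.3 CPM and 871 CPM and neutrophil genes at 6865 CPM and 4422 CPM, each with the median cell at 0 on both sides. Macrophage and dendritic genes stood at 1266 CPM and 576 CPM, with all 8 found in cells with a member and 4 in those without. Of 5 of these genes with at least 20 UMIs in the marrow, 4 were at least 2-fold higher with a member and 0 lower, with a median ratio of 12.6. Of all features 12.2% were higher. In il2rb-positive marrow cells neutrophil genes stood at 21.2 CPM, with mpx at 0, against 7761 CPM in il2rb-negative ones. Macrophage and dendritic genes stood at 918 CPM in il2rb-positive and 664 CPM in il2rb-negative marrow cells, with the median cell at 749 CPM and 0 CPM. In the il2rb-positive cells 6 of these 8 genes were at 0, so the sum came from cd74a and spi1b.

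The 8 thymus cells with a member were unlike the other thymus cells. They held 11 member UMIs, 10 of DICP features, and 4 of the 8 were trbc1-negative, a class of 144 of the 4574 thymus cells. Macrophage and dendritic genes stood at 32410 CPM in the 8 cells and 499 CPM in the others, with all 8 genes of that list found, and T cell genes at 3452 CPM and 9166 CPM. Their median depth was 5992 UMIs against 1368 UMIs, and rag1, the recombinase gene of immature lymphocytes, was read in 6 of the 8. No member was read in the 25 il2rb-positive thymus cells, with an exact upper limit of 22.9 CPM.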

How the data were processed

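The RNA of single cells was counted in 1 droplet library each of scale, kidney marrow and thymus cells from lck:GFP fish. The authors' deposited matrices hold raw UMI counts per feature and barcode with no normalization, written by cellranger 6.0.0 for the scale and thymus and by Cell Ranger 4 for the marrow, per the file headers. The submitters' processing notes name the GRCz11 build, Cell Ranger 6.0.0 and Seurat 4.3.0. No coordinates or sequences are given, since no sequence of that build was used here.

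Cells were barcodes with at least 500 UMIs, 250 genes and at most 10% mitochondrial UMIs. A marrow barcode also needed 1394.89 UMIs, the percentile 99 of the 3000 largest barcodes divided by 10. Scrublet in scanpy 1.11.5, with an expected rate of 0.05, called 16 scale and no marrow or thymus barcodes, and the 16 were left out.

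CPM values carry exact Poisson intervals, shares exact Clopper-Pearson intervals and ratios exact conditional binomial intervals (scipy 1.17.1, Python 3.11.15), at the 95% level. Where a limit is given for a count of 0, it is the end of that exact interval. UMIs were thinned without replacement to 1000 per cell with seed 1. Ratios were counted past 2-fold after adding 3 UMIs to each side, over features with at least 20 UMIs, except for gene lists, where none were added. Members with at least 20 UMIs over the 3 libraries are named. Of the 35 members, 28 keep their symbol in a current table, 4 have another and 3 have none. Members, markers, lists and the rule for naming genes were chosen with earlier results of these data known. Alternatives were the filters on cells, the weight of cells, the thinning depth, the UMI minimum, the UMIs added, the fold, the UMIs needed for a marker, and leaving out the highest cell of each side. A description of member proteins had been planned and was not made.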

Additional observations from a re-analysis of the deposited data

Results flagged for a closer look

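Some ratios by marker status went opposite ways in the scale and the marrow, and the difference was not tested. The NITR ratio of nkl.1-positive to negative cells was 0.220 in the scale and 2.48 in the marrow. The NITR ratio by trbc1 (FP236356.1) was 0.973 in the scale, with an interval that includes 1, and 2.78 in the marrow. After thinning these ratios were 1.22 and 0.753, the other way round, and with each cell weighing the same the marrow ratio was 1.17. The DICP ratio by trbc1 was 5.0 in the scale, with an interval that includes 1 (0.838 to 204), and 0.499 in the marrow, which was 0.889 after thinning. No difference between the libraries by trbc1 is therefore read from these values.

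Barcodes left out of the cells also held members. The 63 scale barcodes over the mitochondrial limit had 20 member UMIs, or 352 CPM (215 to 543), at a median depth of 633 UMIs. The 16 scale barcodes called as doublets had 54, or 743 CPM (558 to 970). The 205 marrow barcodes between 500 UMIs and the marrow minimum had 19, or 125 CPM (75.5 to 196).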

How the results depend on the processing

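A total of 289 alternatives was computed for 48 results. Of those for a level, ratio, share or count that answers a comparison, 181 stayed within the counting interval or, for counts, within 1.5-fold, and 35 moved further. Another 1 changed direction, which was called only where the main interval of a ratio lay clear of 1. Ratios whose main interval includes 1, such as NITR by il2rb or trbc1 in the scale, crossed 1 under some alternatives. Those were placed with the 181 or the 35. Some of the 181 could not differ from the main value. Keeping the doublet calls left values of the marrow alone unchanged, since none were called there. The lower marrow minimum left values of the scale alone unchanged. A minimum of 1000 UMIs per cell left values of the marrow alone and the shares of thinned cells unchanged, since no cell was removed there. The 181 is therefore not read as a measure of stability. Of the alternatives for other results, 68 stayed and 4 moved. No paired analysis was possible because each group has 1 library. The cause of the following changes was not tested. With each cell weighing the same, NITR stood at 804 CPM in the scale and 166 CPM in the marrow, the DICP ratio of scale to marrow was 1.03, and the NITR ratio was 10.3 by FP236331.1 in the scale, and 7.52 by il2rb and 1.17 by trbc1 in the marrow. Without the highest cell of each side the NITR ratio by nkl.1 in the scale was 0.0993. The DICP ratio by FP236331.1 in the scale was 0 without the highest cell, after thinning, and with 2 UMIs of the marker required. With 2 UMIs of nkl.1 the NITR ratio in the scale was 0.0781. With status and levels from cells thinned to 1000 UMIs, the NITR ratio in the scale was 0.773 by il2rb and 1.22 by trbc1. In the marrow it was then 3.47 by il2rb and 0.753 by trbc1, the result called as changed in direction, and the DICP ratio was 1.64 by nkl.1 and 0.889 by trbc1. Thinned to 2000 UMIs, 34.4% of scale and 17.2% of marrow cells held a member, and 18.8% of scale and 4.45% of marrow cells held 2 or more. With at least 50 UMIs per feature, 6 members were higher and 0 lower in the scale than in the marrow, where 10.7% of all features were higher and 5.67% lower. At that minimum 0 were lower with FP236331.1, 0 higher with nkl.1 in the scale, and 3 higher with il2rb in the marrow. With at least 1 UMI those higher were 22 for scale over marrow, where 37.7% of all features were, 13 with nkl.1 and 22 with il2rb in the marrow. For the splits by marker the share of all features was not computed under the alternatives. With 1 UMI added, 1 was higher with nkl.1. Past 4-fold, 0 were lower in the scale than in the marrow, where 2.65% of all features were. By the same fold 0 were lower with FP236331.1, and with nkl.1 1 was higher and 3 lower. Without FP236331.1-positive cells, chosen after seeing the data, NITR in the scale stood at 233 CPM and at 1.72-fold the marrow. Depth limits the shares most in the thymus, where 1344 of 4574 cells were too shallow to thin.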

Other observations

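Other families of innate receptors were scarce. The 4 illr features (immune-related lectin-like receptors) together had 1 UMI in the scale, 57 UMIs in the marrow, or 11.4 CPM, and 3 UMIs in the thymus. Of the 57 marrow UMIs, 1 lay in il2rb-positive and 56 in il2rb-negative cells, the opposite order to NITR and DICP. The 4 features under 3 pigrl symbols (relatives of the polymeric immunoglobulin receptor gene) had none in the scale, 12 UMIs in the marrow and 8 in the thymus, of which 5 lay in the 8 thymus cells that hold a member.

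In those 8 thymus cells the adaptor genes differed from the other thymus cells too. fcer1gl had 36 UMIs there, or 792 CPM against 5.18 CPM in the thymus cells without a member, and tyrobp had 8, or 176 CPM against 0.971 CPM. syk had no UMI in them. Keratinocyte genes stood at 4705 CPM in the same 8 cells and 41.6 CPM in the others. All of these values were singled out after they were seen.

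B cell genes were uneven in the scale as well: 37 of 49 UMIs of that list lay in cells with a member, at 65.9 CPM against 16.7 CPM without, with ighm, ighd, ighz, cd79b, cd37 and pax5 at 0.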
